A study of Drosophila melanogaster with 4 samples.

Results

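The Enhancer of split complex, E(spl)-C, and its neighbour groucho (gro) were followed through H3K9ac, the acetylated lysine 9 of histone H3, a chromatin mark of active promoters and of the start of active genes. The locus was taken as the window from 21820000 to 21890000 on chromosome arm 3R (FlyBase release 5, the build named in the file headers). Its members are the regions of significant enrichment, here called clusters, that overlap this window. There were 9 in the list of ChIP replicate 1, of 8495 clusters in the whole list, 12 of 6772 in the list of ChIP replicate 2, and 8 of 12322 in the series-wide list, which was made for the replicate set and is called the joint list below. Across the 3 lists these were 29 of 27589 clusters, and each lay wholly inside the window. The window was drawn by the place of the genes, but the locus was chosen with earlier results of these data known.

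The samples were whole embryos of Drosophila melanogaster, wild-type strain Oregon-R, 14 to 16 h old, with 2 H3K9ac ChIP samples and 2 samples of input chromatin to which no antibody was added. The labels tie each input to 1 ChIP list, and input values of their own were not analysed here. Nothing in the labels states that the replicates were collected as different batches of embryos, and their spread may therefore be technical. Whole embryos mix all tissues, so fewer cells with the mark and less mark per cell cannot be told apart.

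Notch signalling acts between neighbouring cells: a ligand such as Delta on one cell activates the receptor Notch on the next, and the Notch intracellular domain then joins the DNA-binding protein Su(H) to switch on target genes. The E(spl) bHLH genes are the classical targets of this pathway in the fly. Their proteins are repressors of the basic helix-loop-helix family, which hold down proneural genes in lateral inhibition, the process that keeps neighbours of a neural precursor from taking the same fate. The product of gro is a corepressor without DNA binding of its own that E(spl) bHLH proteins recruit, and it also serves many other repressors.

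In the RefSeq gene table of release 6, all 5 genes named for this locus were found by symbol: E(spl)m3-HLH, E(spl)m5-HLH, E(spl)m7-HLH, E(spl)m8-HLH and gro. That table was used for names and neighbours alone, since its coordinates belong to another release. From E(spl)mdelta-HLH to gro it lists 13 protein-coding genes and 6 long non-coding RNAs. The protein-coding genes come in the order E(spl)mdelta-HLH, E(spl)mgamma-HLH, E(spl)mbeta-HLH, E(spl)malpha-BFM, Kaz-m1, E(spl)m2-BFM, E(spl)m3-HLH, E(spl)m4-BFM, E(spl)m5-HLH, E(spl)m6-BFM, E(spl)m7-HLH, E(spl)m8-HLH and gro. Thus 7 are bHLH repressors and 4 belong to the Bearded family (BFM), small proteins that act on Notch signalling between cells. Kaz-m1, which encodes a protein with a Kazal-type protease inhibitor domain, is of neither kind, and gro closes the series. Outside it, the nearest entries are CG43116 beside E(spl)mdelta-HLH and Exo84, which encodes a subunit of the exocyst, beside gro. The window was drawn so that gro lies at its high-coordinate end, which was not checked against an annotation of release 5. Which cluster lies on which gene was not determined, so clusters are named by position.

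The E(spl) window was one of the most densely H3K9ac-covered stretches of 3R. Clusters covered 48.97 kb of its 70001 bp in replicate 1, or 69.96%, and 40.97 kb in replicate 2, or 58.5%. This is 64.2% ± 8.08 (mean ± SD, n = 2 replicates, here and below), and the joint list covered 72.5%. The rest of 3R was covered to 21.6% in replicate 1, 15.4% in replicate 2 and 29.6% in the joint list. The ratio of window to rest was therefore 3.23 for replicate 1 and 3.80 for replicate 2, a mean of 3.52 ± 0.403, and 2.45 for the joint list. The excess over the arm was larger than the difference between replicates. It fell to a mean ratio of 1.86 when the window was widened by 35 kb on each side. With 2 replicates no exact permutation test can reach p under 0.05, and none was run.

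To place these values, 3R was divided from its first base into consecutive windows of the same length, of which 396 did not touch the E(spl) window. In replicate 1 their median coverage was 19.6%, and 5 of them were covered at or above the E(spl) level. In replicate 2 the median was 13.2%, and 2 lay at or above it. The same 2 windows exceeded the E(spl) window in both replicates and in the joint list. In the joint list the median was 26.7%, and 12 windows lay at or above. The E(spl) window thus outranked 98.7%, 99.5% and 96.97% of these windows in the order replicate 1, replicate 2 and joint. Windows of one arm are neighbours and not replicates, so these ranks are descriptions.

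**Figure D1:**
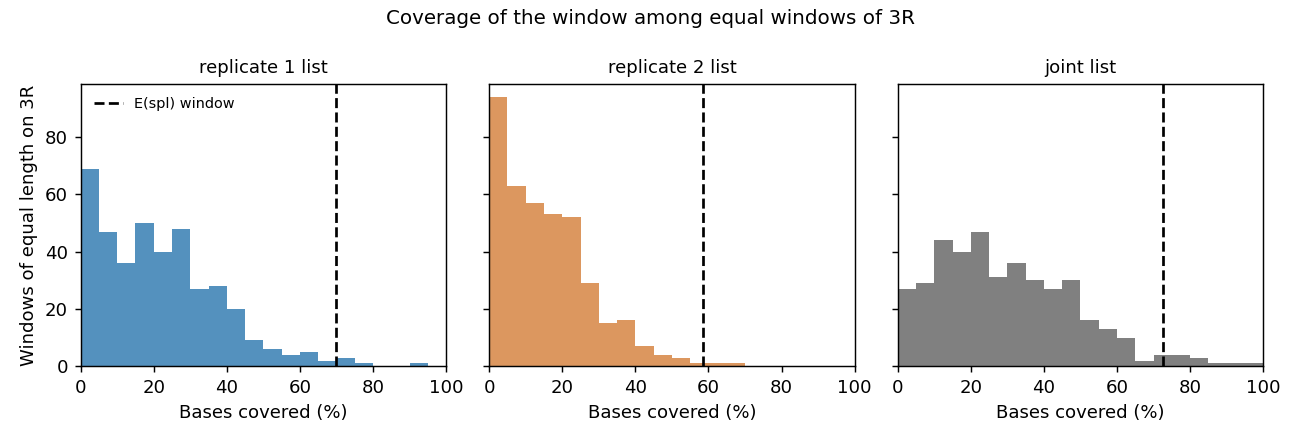
Histograms of the share of bases covered by H3K9ac clusters (x axis, percent) in 396 windows of equal length along 3R (y axis, number of windows), for each list. The dashed line marks the E(spl) window, at 69.96% in replicate 1, 58.5% in replicate 2 and 72.5% in the joint list, in the upper tail each time.

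The flanks of this dense stretch were marked less than the window in each list, and in replicate 2 not at all within 70 kb. In replicate 2, the 70 kb below the window and the 70 kb above it held 0 clusters. The nearest replicate 2 cluster below ended 98977 bp from the window, and the nearest above began 123165 bp from it. In replicate 1, the 70 kb below were covered to 4.56% by 2 clusters, and the 70 kb above to 7.07% by 3. The joint list covered 9.17% below and 11.6% above. The nearer 35 kb above were covered to 14.1% in replicate 1 and 20.1% in the joint list, and the nearer 35 kb below to 4.11% and 3.50%. The windows that tile 3R had medians of 19.6% and 26.7%, but at 70001 bp they are longer than these flanks. One cluster of the joint list, at 21890006 to 21891640, began 6 bp beyond the high-coordinate edge and is just outside the rule. Neither replicate had a cluster there, and the nearest of replicate 1 above the window began 10622 bp from it. The joint cluster was narrow and low, with a width of 1635 bp and a score of 0.318, at percentile 9.31 of the 3R clusters.

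Other stretches of 3R with flanks covered no more than these were themselves covered less than the E(spl) window. Of 394 equal windows with a complete neighbour on each side, 3 had flanks without a covered base in replicate 2, and the highest coverage among them was 2.05%. In replicate 1 there were 25, with a median coverage of 7.72% and a highest of 40.8%. The joint list gave 17, with a median of 11.2% and a highest of 57.6%. The E(spl) window was above the highest of them in each list. The equal windows were cut from the first base of 3R and not drawn around loci, as the E(spl) window was. This comparison was chosen after the flanks had been seen, and no test was made.

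The low-coordinate part of the window was the more continuously marked with H3K9ac. Over the first 40 kb, coverage was 87.7% in replicate 1, 68.3% in replicate 2 and 90.9% in the joint list. Over the last 30 kb it was 46.3%, 45.6% and 48.0%. The division at 40 kb was chosen after the clusters had been seen and lies close to the end of one, so the contrast is a description. The replicates differed there: replicate 1 covered 7.78 kb more than replicate 2 in the first 40 kb, and 0.220 kb more in the last 30 kb.

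In steps of 10 kb, the stretch from 30 to 40 kb into the window was the most covered in both replicates, with 99.3% in replicate 1 and 86.9% in replicate 2. Next came the stretch from 10 to 20 kb, with 98.6% and 80.7%. The joint list had the reverse order, with 99.6% and 100%. The least covered was that from 50 to 60 kb, with 32.7% and 31.9%. The replicates lay furthest apart in the first 10 kb, with 69.5% in replicate 1 and 36.2% in replicate 2. They were closest in the last 10 kb, with 58.8% and 59.2%, the one step at which replicate 2 was the higher.

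**Figure D2:**
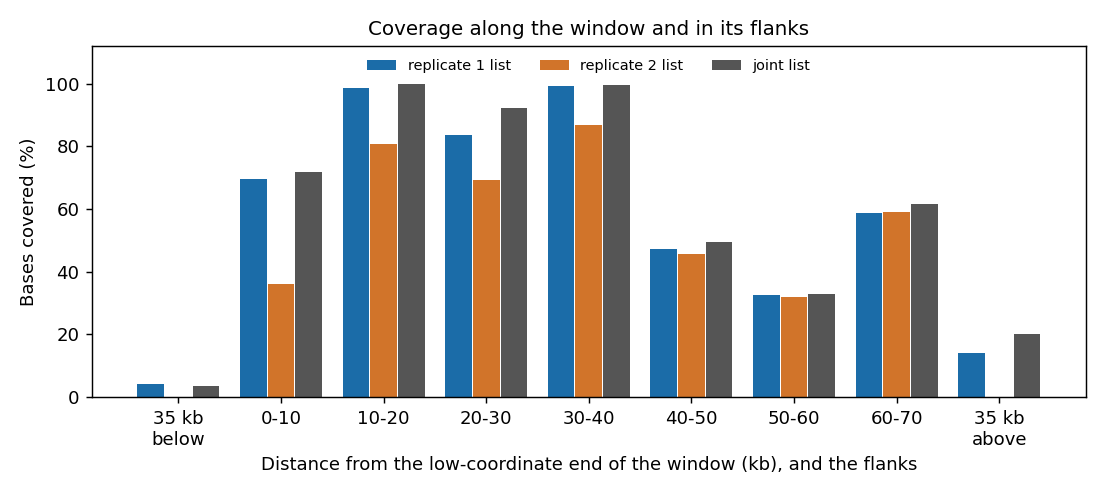
Bars give the share of bases covered by H3K9ac clusters (y axis, percent) in 10-kb steps from the low-coordinate end of the window and in the 35 kb on each side, for the 3 lists. The flanks are at 0 in replicate 2, 4.11% and 14.1% in replicate 1 and 3.50% and 20.1% in the joint list, while steps from 10 to 40 kb lie between 69.3% and 100%.

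The clusters themselves came in 8 units along the window, as the joint list draws them. Scores below are the authors' own values for each cluster, with no stated scale, and are used for ranks within a list. Read depth is unknown. From the low-coordinate end, the first was a narrow, weak cluster at 21822594 to 21824162, with a width of 1569 bp and a score of 0.268. It had a counterpart in replicate 1, at 21822519 to 21824242, with a score of 0.408 that ranked 1924 of 2054 on 3R. Replicate 2 had none there, and this was the one cluster of replicate 1 in the window without a partner in replicate 2.

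The second unit, at 21824232 to 21827752, was of moderate width and high rank. It had a score of 0.928 in the joint list, 1.10 in replicate 1 and 1.02 in replicate 2. These ranked 463 of 2964, 433 of 2054 and 475 of 1652 on 3R, all in the upper part of the list. In replicate 1 just 1 base separated it from the weak cluster before it.

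The third unit was the widest of the locus, 18.5 kb at 21827904 to 21846432. It ranked 10 of 2964 joint clusters of 3R by width and 641 by score, with a score of 0.752. In replicate 1, 2 clusters took up 93.7% of its bases, and in replicate 2, 5 clusters took up 71.3%. In replicate 1 the larger was 11589 bp wide, at 21828248 to 21839836, with a score of 1.01. It ranked 20 of 2054 by width and was the widest replicate cluster of the window. The second, at 21839979 to 21845742, had a score of 0.598. The 5 clusters of replicate 2 were between 1723 and 3373 bp wide. The strongest of these lay at 21829613 to 21832553, with a score of 1.28 that ranked 260 of 1652, and the weakest at 21839904 to 21841626, with 0.487 and rank 1588. The continuous domain of the joint list was thus a chain of unequal clusters in replicate 2.

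The fourth unit was short, at 21847008 to 21849116, with scores of 0.548 in the joint list, 0.615 in replicate 1 and 0.568 in replicate 2. Its rank was 1155 of 2054 in replicate 1 and 1471 of 1652 in replicate 2, so the same place was of middle rank in one list and low in the other. The fifth was another broad domain of 10.6 kb at 21849322 to 21859956, with a score of 0.782. In replicate 1 a single cluster of 10476 bp, scoring 0.917, took up 98.5% of it. Replicate 2 covered 84.8% with 2 clusters, of 3563 bp and a score of 0.718 and of 5456 bp and a score of 0.854.

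The sixth unit was the weakest of the locus, and it recurred. It lay at 21862138 to 21864000 and scored 0.227 in the joint list, 0.338 in replicate 1 and 0.344 in replicate 2. It ranked 2013 of 2054 on 3R in replicate 1 and 1646 of 1652 in replicate 2. Both replicates held it with starts 10 bp apart. Among the other clusters of 3R under score percentile 10, 32.4% of those in replicate 1 overlapped a replicate 2 cluster, and 91.5% of those in replicate 2 overlapped a replicate 1 cluster.

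The seventh unit lay at 21866802 to 21869886, close to 3 kb wide, with scores of 0.888 in the joint list, 0.932 in replicate 1 and 1.04 in replicate 2. It ranked 585 of 2054 and 458 of 1652 in the replicates. The eighth, nearest the high-coordinate end of the window, was broad and the highest-scoring of the locus in each list. It spanned 9467 bp at 21876698 to 21886164. Its scores were 1.19 in the joint list, 1.20 in replicate 1 and 1.38 in replicate 2, which ranked 265 of 2964, 336 of 2054 and 213 of 1652 on 3R. By width it ranked 51 of 2054 in replicate 1, and 8 of 1652 in replicate 2. Unlike the other broad domains of the locus, it was a single cluster in both replicates, 9155 bp and 9109 bp wide. Starts were 84 bp apart and ends 38 bp apart.

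**Figure D3:**
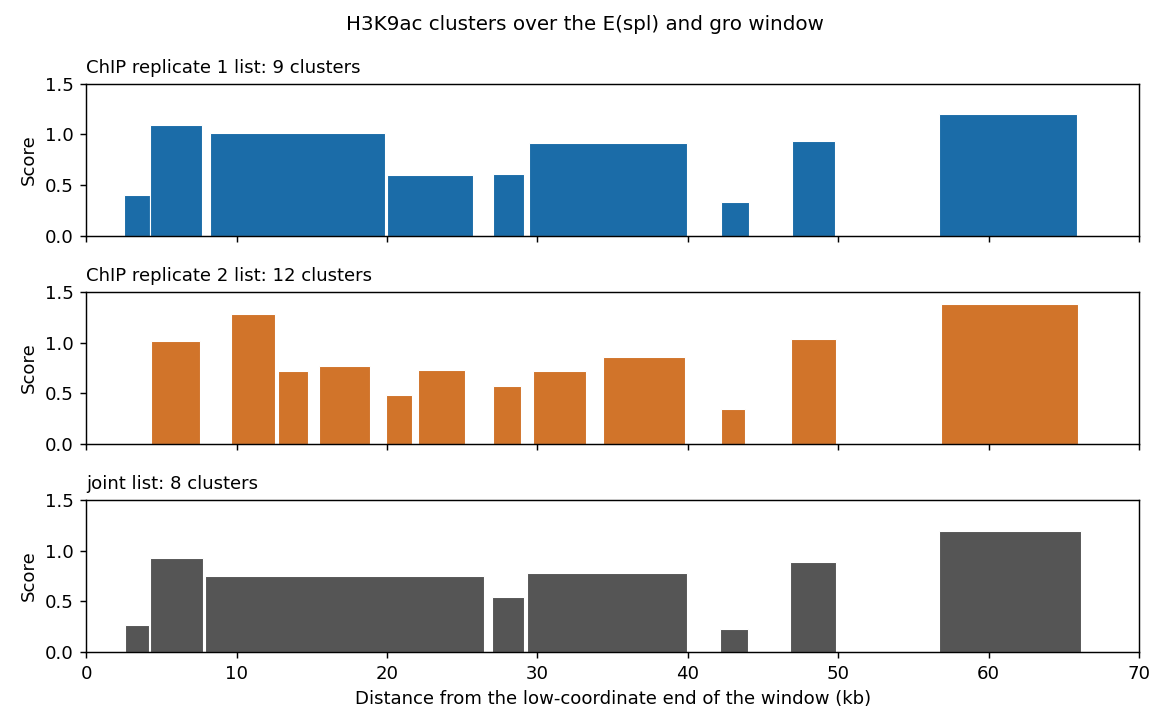
Map of the H3K9ac clusters in the window for each list: x axis, distance from the low-coordinate end of the window in kb. Bar width is the cluster's extent and bar height its score as deposited by the authors, which is comparable within a list. The domain from 7.90 to 26.4 kb in the joint list is 2 clusters in replicate 1 and 5 in replicate 2, and the cluster from 56.7 to 66.2 kb is single and highest in all 3 lists.

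Broad clusters held most of the covered bases in replicate 1 and the joint list, but not in replicate 2, and score ranks were mixed. Clusters of at least 8 kb numbered 3 of 9 in replicate 1, where 2.59% of the other clusters of 3R were as wide. In replicate 2 there was 1 of 12, against 0.854%, and in the joint list 3 of 8, against 3.38%. Such clusters held 63.7% of the covered bases of the window in replicate 1, 22.2% in replicate 2 and 76.1% in the joint list. Median width was 3473 bp in replicate 1 and 3037 bp in replicate 2, or 3255 ± 308 bp, and 3303 bp in the joint list. The clusters of the rest of 3R had medians of 2308, 2198 and 2081 bp.

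Scores of the window clusters ran from near the bottom of the arm's list to its upper part, but not to the top. In replicate 1 they ran from percentile 2.00 to percentile 83.7 of the 3R clusters, with a median of 70.8. In replicate 2 they ran from percentile 0.363 to 87.2, with a median of 42.3, below the middle of the list. The mean of both was percentile 56.6 ± 20.1, with the replicates on opposite sides of the middle of the list. These 2 values therefore do not settle whether the window clusters ranked above those of the arm. In the joint list the median was percentile 78.97. At or above percentile 75 were 3 of the 9 clusters of replicate 1, where the background was 25%, and 2 of the 12 of replicate 2, where it was 25.1%. These shares are near the background. In the joint list it was 5 of 8, against 24.9%. Among clusters of at least 8 kb, those of the window scored 0.917 to 1.20 in replicate 1, against a median of 0.992 for 53 others on 3R. The 1 of replicate 2 had 1.38, against a median of 1.05 for 14 others.

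**Figure D4:**
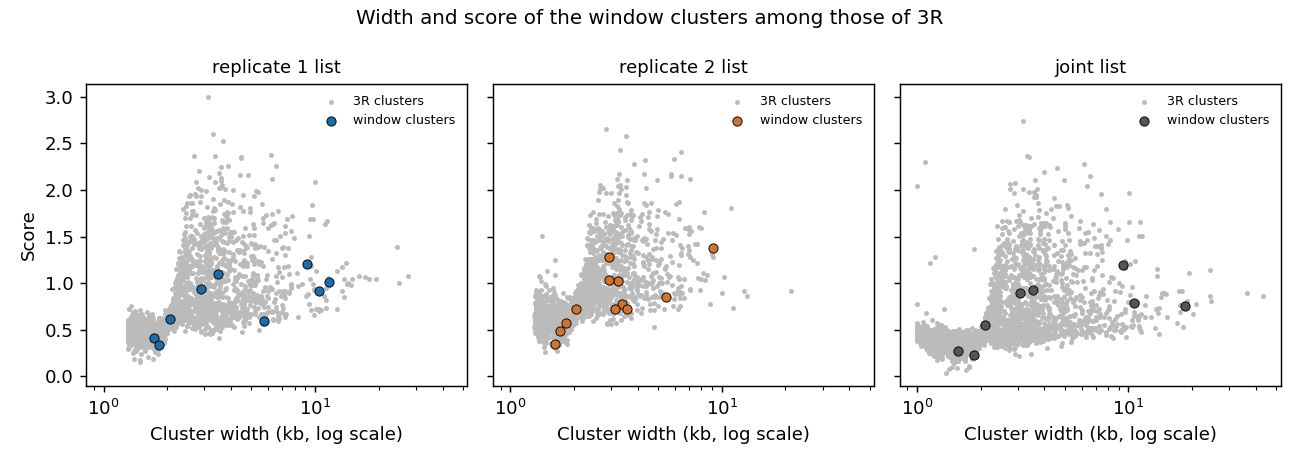
Width (x axis, kb, log scale) and score as deposited by the authors (y axis) of all 3R clusters in grey and the window clusters in colour, for each list. The window clusters reach the right-hand, broad side of the cloud, up to 18.5 kb in the joint list, while their highest scores of 1.20, 1.38 and 1.19 lie under the highest of the arm, at 3.00, 2.66 and 2.74.

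Both replicates marked largely the same bases in the window. Of the 8 joint clusters, 7 overlapped a cluster of each replicate, where 43.7% did on the rest of 3R. The joint list was made for the same replicate set, so this overlap is not independent of the replicates. All 12 replicate 2 clusters overlapped a replicate 1 cluster, where 90.7% did on the rest of 3R. In the other direction 8 of 9 did, where 67.1% did on the rest of the arm. The bases covered by both came to 40.8 kb, which is 99.6% of the replicate 2 bases and 83.3% of the replicate 1 bases. On the rest of 3R these shares were 90.4% and 64.3%. The Jaccard index, the bases in both over the bases in either, was 83.1% in the window and 60.2% on the rest of the arm. All these overlap shares rise with coverage, which was higher in the window than on the rest of 3R. The contrasts with the arm were not corrected for this, so closer agreement of the replicates at the locus was not shown. The replicates differed in how they divided the same bases: 3 of the 9 replicate 1 clusters spanned more than 1 replicate 2 cluster, against 5.57% on the rest of 3R. These 3 clusters took in 7 clusters of replicate 2. They were 5764 to 11589 bp wide, against a replicate 1 median of 2308 bp on the rest of 3R. The contrast with the arm was not matched for width, so it is not shown to be a trait of the locus. In reverse, 0 of 12 replicate 2 clusters spanned more than 1 of replicate 1, where 2.26% did elsewhere on 3R.

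Boundaries were close where clusters matched singly. In 5 places each cluster overlapped just the other, and there the starts lay 10 to 84 bp apart and the ends 8 to 215 bp apart. The medians were 37 bp and 164 bp. On the rest of 3R, 1204 such pairs had medians of 118 bp and 122 bp. Both boundaries lay within 250 bp in 5 of 5 pairs in the window and in 54.2% of pairs elsewhere on the arm. That limit was not planned and lies above the largest difference in the window, 215 bp. The share of 5 of 5 is therefore a description of these pairs and no test. The order of scores in the 5 pairs was alike but not equal. The cluster at 21876698 was first in both, and the short clusters at 21847008 and 21862138 were the last of the 5 in both. The clusters at 21824232 and 21866802 exchanged places, with 1.10 and 0.932 in replicate 1 and 1.02 and 1.04 in replicate 2.

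By number, the window held 12.9 clusters per 100 kb in replicate 1 and 17.1 in replicate 2, a mean of 15.0 ± 3.03. The rest of 3R held 7.35 and 5.89. The shorter list thus had the more clusters here, although it had fewer on the arm. The mean density was 7.14 with clusters under their list's median score left out and 8.93 in the window widened by 35 kb on each side. In the joint list the density was 11.4 per 100 kb, against 10.6, so there the excess of coverage came with nearly the number of clusters usual for the arm. Of the 396 equal windows, 81 held at least 9 clusters in replicate 1, and 8 held at least 12 in replicate 2. In the joint list 205 held at least 8.

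Cluster-free stretches between the clusters of the window were short. With those at the window edges included, free stretches added up to 21.0 kb in replicate 1 and 29.0 kb in replicate 2. Between clusters there were 8 in replicate 1, with a median of 902 bp, and 11 in replicate 2, with a median of 1116 bp. On the rest of 3R the median gap was 3923 bp in replicate 1 and 5081 bp in replicate 2. In the joint list it was 575 bp for 7 gaps in the window and 2506 bp on the rest of the arm. The window medians leave out the stretches at the edges, while gaps on the rest of 3R were counted in full. In replicate 2 the edge stretches continue beyond the window to full lengths of 103.3 and 127.2 kb. The medians are therefore not fully alike.

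The one stretch of 5 kb or more lay between the seventh unit and the broad cluster at the high-coordinate end. Its length was 6912 bp for replicate 1, 6988 bp for replicate 2 and 6811 bp for the joint list. With clusters under their list's median score left out, the longest stretch averaged 15708 bp. No list had a cluster from 21869887 to 21876697. Gaps of 5 kb or more were common elsewhere: 43.2% of gaps on the rest of 3R reached that length in replicate 1 and 50.4% in replicate 2. The longest gap of the window was longer than 64.9% of all gaps on the rest of 3R in replicate 1 and 57.7% in replicate 2. The next longest lay on either side of the weak sixth unit. They measured 2272 and 2877 bp in replicate 1, and 2389 and 3069 bp in replicate 2. At the edges, the locus was free from 21820000 to 21822518 and from 21886165 to 21890000 in all 3 lists.

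Joining clusters less than 1000 bp apart gave 1 run of 37.4 kb in the joint list, from 21822594 to 21859956. It took in the first 5 units, was covered to 97.3%, and ranked 6 of 2083 such runs on 3R by length. Joining below 500 bp divided it into runs of 23.8 kb and 12.9 kb. With 1000 bp, replicate 1 formed runs of 23.2 kb and 12.9 kb, which ranked 9 and 43 of 1609. In replicate 2 the longest run of the window was 9.26 kb, which ranked 49 of 1374. The length of the continuous domain thus depended on the list and on the joining distance.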

How the data were processed

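Per the file headers, each list holds regions of significant enrichment on FlyBase release 5, and the score of a region is in column 6, as deposited by the authors. Not given in the sources used here are the aligner, the caller and its threshold, what the score is relative to, and how the joint (series-wide) list combined the replicates. Read depth is unknown, so no interval for read sampling is given. Coordinates are counted from 1. Overlapping clusters were merged before bases were counted. Clusters were shared if they overlapped by at least 1 bp. Percentiles give the share of the other 3R clusters of a list with a lower score. The rest of 3R is the 27905053 bp arm without the window. The locus, gene lists and comparisons were chosen with earlier results of these data known. All window clusters are described, since the joint list held fewer than 20 there. Promoter, protein and pathway comparisons were not made. The interval code was tested on 50 simulated pairs of lists against a base-by-base count, with 0 mismatches. Alternatives were the joint list, high-scoring clusters, a wider window, other overlaps and a single replicate. Python 3.11.15, numpy 2.4.6, pandas 2.3.3 and matplotlib 3.10.9 were used.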

Additional observations from a re-analysis of the deposited data

How the results depend on the processing

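Of 26 settings tried for 8 results, 14 stayed within the SD of the replicates and 12 did not. Some of the 14 could not move. Every cluster lay wholly inside the window, so keeping just such clusters changed nothing. Joining clusters less than 500 bp apart could not alter a longest stretch of 6950 bp. The joint list gave a coverage of 72.5%, a ratio to the rest of 3R of 2.45, 11.4 clusters per 100 kb, a median score percentile of 78.97, a longest cluster-free stretch of 6811 bp and a rank above 96.97% of equal windows. With the lower-scoring clusters left out (those under their list's median score), coverage was 43.8%, density 7.14 per 100 kb and the longest stretch 15708 bp, since fewer clusters are left. The ratio to the rest of 3R stayed at 3.71. Widening the window by 35 kb on each side, into less covered flanks, gave a coverage of 34.4%, a ratio of 1.86 and a density of 8.93. Without either replicate, coverage ranged from 58.5 to 69.96%, the ratio from 3.23 to 3.80, the density from 12.9 to 17.1, the median width from 3037 to 3473 bp, the score percentile from 42.3 to 70.8, the shared clusters from 88.9 to 100%, the longest stretch from 6912 to 6988 bp and the rank from 98.7 to 99.5%. With the lowest-scoring replicate 1 clusters dropped until both lists were equally long, mean coverage was 61.7% and the mean ratio 3.61. This alternative was chosen after the data were seen, and it left replicate 2 unchanged. The shortened replicate 1 list by itself gave 64.9% and 3.42. Other causes were not tested. No paired analysis was possible because no result comes from a test between ChIP and input, whose values were not analysed. What depth limits could not be measured.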
